A study of Mus musculus with 9 samples.

Results

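The clustered protocadherins are cadherin-like adhesion proteins of the cell surface, encoded in mouse by 3 neighbouring gene clusters on chromosome 18, named alpha, beta and gamma. The genes were chosen by symbol, as all entries on chromosome 18 whose symbol begins with Pcdha, Pcdhb or Pcdhg followed by an isoform name. This gave 49 of the 29386 gene identifiers in the deposited tables, 6 alpha, 21 beta and 22 gamma, of which 41 were listed in every table. The symbol Pcdha11 stands for 2 identifiers, and these were kept apart. Of 58 clustered protocadherin genes in the GENCODE M21 annotation, 9 are not listed in these tables and were not analysed here: Pcdha1, Pcdha2, Pcdha3, Pcdha4, Pcdha6, Pcdha7, Pcdha8, Pcdhac1 and Pcdhb1.

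The 9 RNA-seq libraries belong to 3 experiments, 1 on brown adipose tissue (BAT) of mice and 2 on cultured primary brown adipocytes, and each lowers Setdb1, the gene of an enzyme that methylates histone H3 and silences chromatin. The BAT experiment compared 2 control libraries (Setdb1 fl/fl; Adipoq-Cre-) with 2 Setdb1 AKO libraries (Setdb1 fl/fl; Adipoq-Cre+), in which the adiponectin promoter drives Cre in adipocytes. All 4 carry the floxed alleles, the other cells of the tissue keep Setdb1 in this design, and without Cre-positive libraries of intact Setdb1 an effect of Cre cannot be told apart from that of the deletion. The 4-OHT experiment compared primary brown adipocytes of Setdb1 flox/flox; Rosa26Cre-ERT2 genotype, in which 4-hydroxytamoxifen (4-OHT) switches Cre on, 1 library given 4-OHT at 1 µM and 1 given the ethanol vehicle (ETOH), so an effect of the drug or of Cre cannot be told apart either. The siRNA experiment compared 1 library of primary brown adipocytes given the control siRNA siNC with 2 given siSetdb1; their genotype is not in the labels, and nothing says that the 2 came from separate cultures. Age, sex and pooling of mice were not given in the sources used here, and the prefix TN_CE of the BAT labels is not explained there.

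Clustered protocadherins are best known from the nervous system, where each neuron uses its own mix of isoforms as a label by which its branches recognise each other. In the alpha and gamma clusters a variable first exon, each with a promoter of its own, is spliced to constant exons at the end of the cluster, while each beta gene is a single exon without a constant part. Most variable promoters are chosen at random in single neurons through DNA methylation, CTCF and cohesin looping, the C-type isoforms near the end of the alpha and gamma clusters are used more evenly, and SETDB1 is known to shape the chromatin of this locus in neurons. What these proteins do in brown fat is much less studied.

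On GRCm38 chromosome 18 the annotated alpha genes span 36930184 to 37187661, the beta genes 37264938 to 37524479 and the gamma genes 37661793 to 37841873, all on the plus strand. Of the 21 listed beta genes, 18 share no exon base with another annotated gene. The listed gamma genes share their constant exons, and a median of 54.7% of the exon bases of a gamma gene was its own. How reads on shared exons were assigned is not given in the sources used here, so counts of single alpha and gamma genes are uncertain. Among beta genes a median of 11.96% of the 31-base stretches of a transcript also occurred in another clustered protocadherin. Among gamma genes this median was 46.0%, a measure that includes the shared constant exons. Pcdhga10 had no exon base of its own.

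These genes were weakly expressed, and this sets how firmly each value can be read. Total reads on genes were 15979479 to 16940622 per BAT library, 17593799 to 18467865 in the siRNA experiment, and 29911734 and 30176359 in ETOH and 4-OHT. All clustered protocadherins together had 710 to 966 reads in a BAT library, 1590 to 1765 in the siRNA experiment and 5672 and 4997 in ETOH and 4-OHT. The median listed member had 7 to 9 reads in each BAT library, 15 to 19 in each siRNA library, and 82 and 73 in ETOH and 4-OHT. Setdb1 read 455 and 473 normalised counts in control BAT and 156 and 191 in Setdb1 AKO BAT (log2 fold change -1.42, SE 0.19; limma, adjusted p = 0.0216, but 0.225 and 0.230 without control 1 or control 2). It read 784 in siNC against 371 and 399 in siSetdb1 (limma, adjusted p = 0.0537; edgeR, adjusted p = 1.14e-04), and 1070 reads in ETOH against 620 in 4-OHT.

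Per length, Pcdhgc3 led the clustered protocadherins in the controls of every experiment. This C-type gamma isoform (chromosome 18, 37806364 to 37841873) is known to be expressed outside the nervous system as well. Its level was 4.36 RPKM (reads scaled to exon length in kb and to library depth) in control BAT (mean of 2 libraries), 6.13 in siNC and 5.16 in ETOH. The next by this level was Pcdhb17 in control BAT at 0.684, Pcdhb22 in siNC at 1.28 and Pcdhgb6 in ETOH at 2.50. Pcdhgc3 also ranked 1 in each when the same counts were divided by the length of exon bases that a gene shares with no other. Whether these counts hold reads on shared exons is not given in the sources used here. By this second length the next was Pcdhgb6 in control BAT at 0.82 and in ETOH at 4.56, and Pcdhga6 in siNC at 1.41. Pcdhb17 then ranked 4 in control BAT and Pcdhb22 ranked 3 in siNC, so the second place in these depended on the length used. Alpha transcripts were the scarcest: no alpha gene was listed in the BAT table, 2 were listed in the siRNA experiment with 0 to 9 reads a library, and 6 were listed in the 4-OHT experiment.

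In BAT the beta genes and the gamma A and B genes lay on different sides of their controls. Beta transcripts together were lower in both Setdb1 AKO libraries than in both controls. Gamma transcripts of the A and B subfamilies together were higher, and Pcdhgc3, the most abundant member, was lower. The planned sums were those of whole clusters, and the split of gamma into A and B and C-type genes was not in that plan. For the whole gamma cluster the ratio of group means was 1.03. No single member passed the test over all genes. Here and below a normalised count is the read count divided by the authors' scaling factor of the library, and a sum over members is a description without a test.

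The summed beta count was 294 and 293 in the controls and 169.8 and 205 in the Setdb1 AKO libraries. The groups did not overlap, and the ratio of their means was 0.639, with a 95% counting interval of 0.560 to 0.729. Such intervals cover counting error only, and reads without molecular identifiers are not independent molecules. By group means 17 of 21 beta genes were lower in Setdb1 AKO and 4 higher. Of all 14466 genes tested in BAT, which had to pass a filter on counts, 50.6% had a positive log2 fold change. For 10 beta genes both Setdb1 AKO libraries were below both controls and for 2 both were above, where 20.2% of all listed genes lay below and 22.7% above. The ratio of sums lay between 0.579 and 0.700 when each library was left out in turn. In a bulk sample less RNA per cell and fewer cells that make it cannot be told apart.

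Of the 4 most abundant beta genes of BAT, 3 were lower in both Setdb1 AKO libraries and Pcdhb22 was not. Pcdhb17 (37484795 to 37489454) read 51.4 and 49.7 normalised counts in the controls and 22.6 and 29.9 in Setdb1 AKO, and the difference on the log2 scale was -0.93 (SE 0.35; limma, adjusted p = 0.233). Pcdhb14 read 24.8 and 25.4 against 15.4 and 14.4, and Pcdhb20 read 31.2 and 29.4 against 22.6 and 18.6. In these 3 genes the groups did not overlap. Pcdhb22, the last beta gene before the gamma cluster, read 57.8 and 56.8 in the controls and 45.3 and 84.6 in Setdb1 AKO, 1 library on each side of the controls.

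Some beta genes with few reads had wider relative differences. Pcdhb4 (37307455 to 37311172), named after its values were seen, had 17 and 16 reads in the controls and 1 and 0 in Setdb1 AKO, a ratio of 0.0324 with a counting interval of 7.97e-04 to 0.194. The groups stood well apart, yet the fitted log2 fold change of -3.57 (SE 0.80) did not pass over all genes (limma, adjusted p = 0.0821). Pcdhb5, also named after its values were seen, had 16 and 13 reads against 0 and 6. Pcdhb21 had 3 and 5 against 0 and 0, with a counting interval of the ratio that reaches 0.627. The beta genes with few reads that were higher by group means were Pcdhb6, Pcdhb10 and Pcdhb12. Pcdhb6 had 0 and 2 reads in the controls against 1 and 3 in Setdb1 AKO. Pcdhb10 had 2 and 3 against 3 and 4, and Pcdhb12 had 0 and 0 against 1 and 1.

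The gamma A and B genes, which make up the variable part of the gamma cluster, went the other way in BAT. Their summed count was 221 and 210.0 in the controls and 304 and 460.1 in Setdb1 AKO, a ratio of means of 1.77 (counting interval 1.57 to 1.99). Both Setdb1 AKO libraries lay above both controls, and Setdb1 AKO 2 stood far above Setdb1 AKO 1. Without Setdb1 AKO 2 the ratio was 1.41 and without Setdb1 AKO 1 it was 2.13. By group means 15 of 18 were higher and 3 lower, where 50.6% of all 14466 genes tested had a positive log2 fold change. For 9 of 18 both Setdb1 AKO libraries were above both controls, where 22.7% of all listed genes were. The 3 lower ones were Pcdhga4, Pcdhga5 and Pcdhga6.

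**Figure D1:**
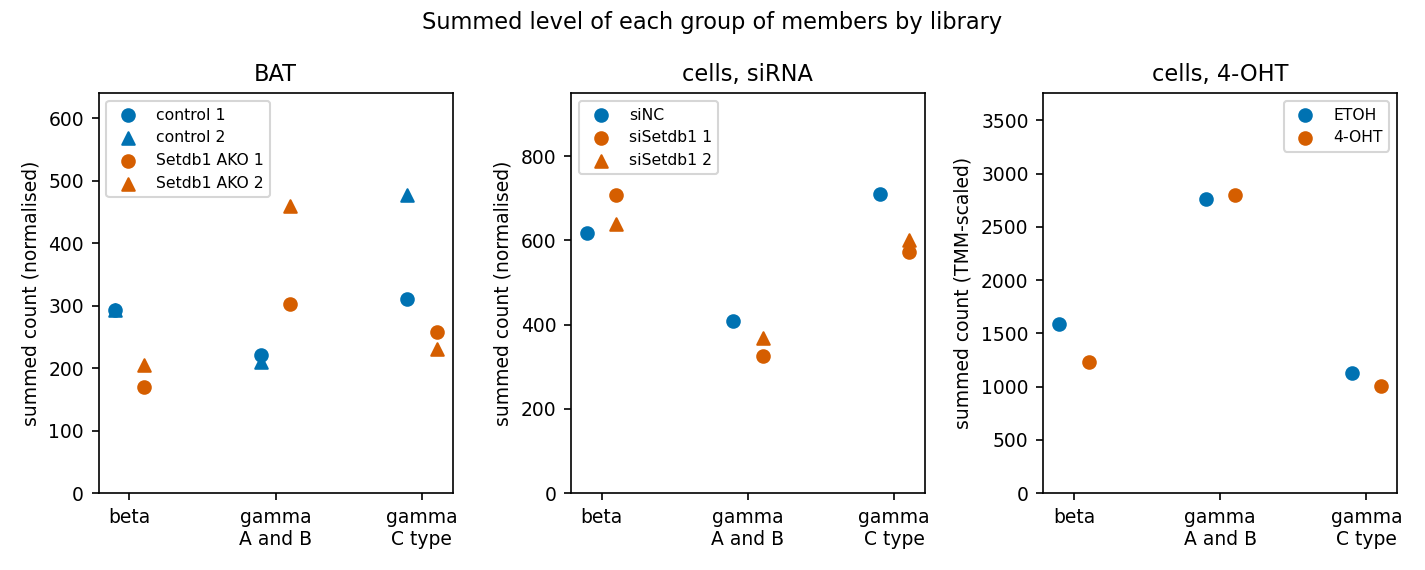
Summed counts of the beta genes, the gamma A and B genes and the gamma C-type genes (vertical axes, scaled within each experiment) in each library of the 3 experiments. Blue points are controls and orange points the libraries with reduced Setdb1. In BAT the beta sums were 294 and 293 in the controls against 169.8 and 205 in Setdb1 AKO, while the gamma A and B sums were higher in Setdb1 AKO.

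Pcdhga7 (37714764 to 37841873) and Pcdhga2 (37668953 to 37841870), both named after their values were seen, had the largest differences among gamma genes above the filter. Pcdhga7 read 7.34 and 11.2 normalised counts in the controls and 37.0 and 43.3 in Setdb1 AKO, and the difference on the log2 scale was 2.03 (SE 0.45; limma, adjusted p = 0.0808). Pcdhga2 read 11.9 and 4.06 against 26.8 and 52.6, a log2 difference of 2.25 (SE 0.62; limma, adjusted p = 0.132), which was 1.58 without control 2 and 2.93 without control 1. Together these genes took 17.1% and 19.0% of all gamma A reads in the controls and 45.3% and 48.2% in Setdb1 AKO. As the genes were picked for these differences, the shares describe that choice and support nothing further.

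The most abundant B-type genes were higher by group means, with overlap in some. Pcdhgb2 read 33.0 and 16.2 normalised counts in the controls and 41.2 and 72.2 in Setdb1 AKO (log2 fold change 1.20, SE 0.47; limma, adjusted p = 0.254). Pcdhgb7 read 14.7 and 30.4 against 23.7 and 52.6, and Pcdhgb6 read 32.1 and 34.5 against 26.8 and 55.7. The groups overlapped for Pcdhgb6 and Pcdhgb7 and not for Pcdhgb2. Pcdhga12 was more even, with 11.0 and 10.1 against 25.7 and 25.8, and was named after its values were seen.

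Pcdhgc3 read 299.9 and 464 normalised counts in control BAT and 248 and 216 in Setdb1 AKO. Both Setdb1 AKO libraries were below both controls, although the controls differed from each other by more than control 1 differed from Setdb1 AKO 1. The log2 fold change was -0.69 (SE 0.24; limma, adjusted p = 0.208). Its share of all gamma reads was 56.4% and 67.5% in the controls and 44.2% and 31.2% in Setdb1 AKO. The other C-type isoforms were scarce in BAT: Pcdhgc4, known for its part in the survival of interneurons, had 3 and 3 reads against 3 and 7, and Pcdhgc5 had 9 and 10 against 6 and 8. The gamma sum as a whole, in which Pcdhgc3 and the A and B genes lay on opposite sides, was 532 and 687 in the controls and 561 and 691 in Setdb1 AKO. The ratio of these means was 1.03, and 0.974 when libraries were scaled by total reads, so the side of the whole gamma sum depends on the scaling. An annotated antisense gene, BC037039, overlaps the start of Pcdhgc3 and had 12 and 18 reads against 35 and 2, and whether the counting used strand is not given in the sources used here.

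**Figure D2:**
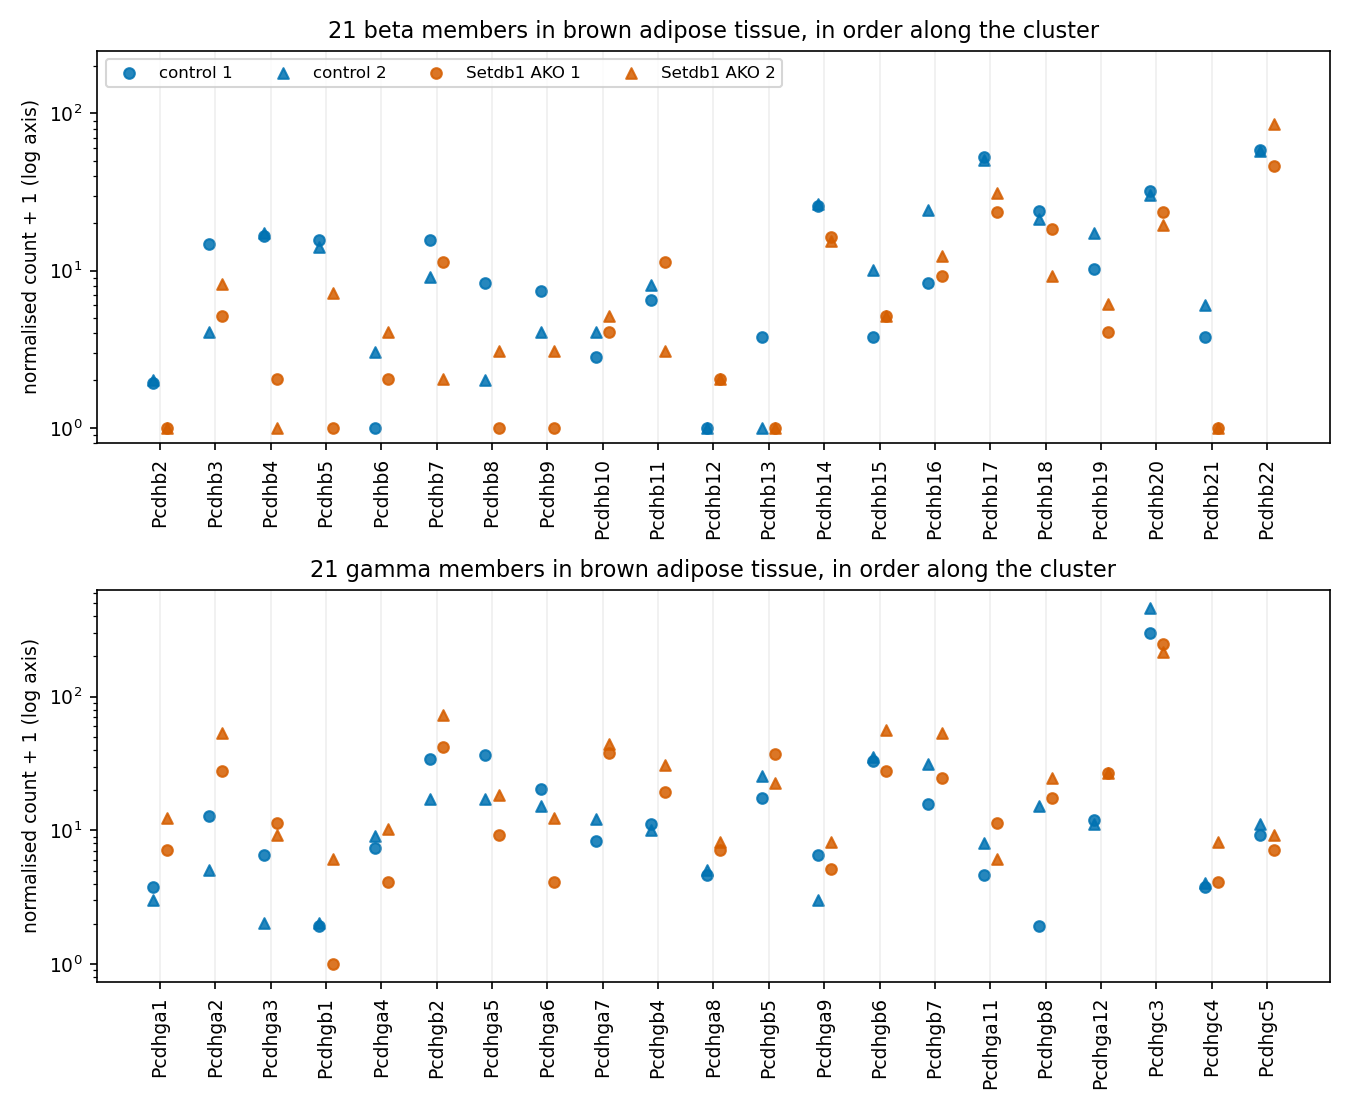
Normalised count plus 1 (log axis) of each of the 21 beta genes (top) and 21 gamma genes (bottom) listed for BAT, in their order along the cluster. Blue marks are the 2 control and orange marks the 2 Setdb1 AKO libraries. Pcdhb4 and Pcdhb17 were lower and Pcdhga2, Pcdhga7 and Pcdhga12 higher in both Setdb1 AKO libraries, and Pcdhgc3 stands above all others.

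Of the 42 members listed in BAT, 21 passed the filter of at least 10 normalised counts in at least 2 libraries, 9 beta and 12 gamma. None was called by limma at a false discovery rate below 0.05, where 1.68% of all 14466 genes tested were called. The smallest adjusted p was 0.0808, for Pcdhga7 (limma). The quasi-likelihood test of edgeR called 0 members and 1.73% of all genes, with a smallest adjusted p of 0.0662 among members. DESeq2 called 0 members and 4.5% of all genes, with a smallest adjusted p of 0.0638. At an unadjusted p below 0.05 limma had 5 members higher, all gamma A or B, and 4 lower, namely Pcdhb4, Pcdhb5, Pcdhb17 and Pcdhgc3, where edgeR had 5 and 3 and DESeq2 3 and 2. Over all genes tested 8.64% had such a p and were higher and 9.08% lower. Of these members Pcdhb4 and Pcdhb5 passed the filter only through their control libraries. Pcdhga2, Pcdhga7 and Pcdhgb4 passed it only with their Setdb1 AKO libraries. The counts by direction therefore support nothing beyond the values shown. The authors' deposited table likewise held 0 members with an adjusted p below 0.05, with Pcdhga7 lowest at 0.0988.

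Markers of other cell types of the tissue were measured in the same BAT libraries. Of 12 Schwann cell and nerve markers 11 were listed and 9 tested, none was called, and 6 of the 9 were positive with a median log2 fold change of 0.36. Their summed level was 1332 and 2207 normalised counts in the controls and 3243 and 1968 in Setdb1 AKO, so the groups overlapped. The neuronal genes Snap25 and Tubb3 were near 0 in BAT, with at most 2.06 and 11.3 normalised counts, and Th is not listed there. All 10 fibroblast and preadipocyte markers were positive with a median of 0.25 and 1 call, Pi16, which rose. Its log2 fold change was 2.87 (SE 0.45; limma, adjusted p = 0.0327, but 0.0888 without Setdb1 AKO 2 and 0.194 and 0.279 without control 1 or control 2). The summed fibroblast level was 12337 and 11161 in the controls and 11684 and 16181 in Setdb1 AKO. Mural markers were positive in 5 of 6 with a median of 0.43 and no call, and their summed level of 7604 and 7136 in the controls lay below the 9779 and 8754 of Setdb1 AKO. Adipocyte markers were positive in 4 of 8 with a median of 0.06 and endothelial markers in 2 of 6 with a median of -0.01. Skeletal muscle markers summed to 25.7 and 479.9 in the controls and 102.9 and 59.8 in Setdb1 AKO. Their part in the protocadherin values was not tested.

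In the siRNA experiment the beta sum lay above its control and the gamma A and B sum below it, each on the other side than in BAT; the difference between the experiments was not tested. Summed over beta genes the count was 617 in siNC, 707 in siSetdb1 1 and 639 in siSetdb1 2, a ratio of 1.09 whose counting interval of 0.992 to 1.20 includes no difference. The summed gamma A and B count was 409.5 in siNC and 326 and 369 in siSetdb1, a ratio of 0.848 (counting interval 0.750 to 0.961). Both siSetdb1 libraries were thus above siNC for the beta sum and below it for the gamma A and B sum, against a single control library. By group means 9 of 20 beta genes were higher and 11 lower, so the side of the beta sum was not that of most beta genes. Of 18 gamma A and B genes 6 were higher and 12 lower. Of all 15224 genes tested, 49.3% had a positive log2 fold change.

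Of 43 members listed in the siRNA experiment both siSetdb1 libraries were above siNC for 10 and below it for 19, where 30.6% and 32.4% of all listed genes did so. Of the 36 tested members, which had at least 10 normalised counts in 1 library, 0 were called by limma, which called 0.0394% of 15224 genes. Of the same genes edgeR called 0.243% and DESeq2 0.0723%, with 0 members each. At an unadjusted p below 0.05 limma had 1 member higher and 0 lower, edgeR 1 and 1 and DESeq2 0 and 0, against 3.02% and 2.04% of all genes tested by limma. That member was Pcdhga4, with 6.91 in siNC and 25.3 and 19.3 in siSetdb1 (log2 fold change 1.55, SE 0.65; limma, adjusted p = 0.940). The authors' deposited tables held 0 members with an adjusted p below 0.05 for either siSetdb1 library.

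Of the 4 most abundant beta genes in the siRNA experiment 3 were the same as in BAT, and of these Pcdhb17 and Pcdhb20 lay on the other side of the control. Pcdhb17 had a normalised count of 94.7 with siNC, then 134 and 124 with siSetdb1, and Pcdhb20 read 44.4 against 63.8 and 70.3. Pcdhb22 read 154 against 207 and 146, and Pcdhb19 read 61.2 against 52.7 and 35.6. Pcdhb17 and Pcdhb20 were thus above siNC in both libraries, Pcdhb19 below it, and Pcdhb22 on either side. None of these 4 had an adjusted p (limma) below 0.940.

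Pcdhgc3 was again lower, at 615 normalised counts in siNC and 476 and 515 in siSetdb1 (log2 fold change -0.31, SE 0.15; limma, adjusted p = 0.940). Its share of gamma reads was 54.9% in siNC and 53.1% in both siSetdb1 libraries, each inside the exact binomial interval of siNC, 51.9% to 57.8%. Pcdhgc4 read 66.1 against 53.7 and 46.8, and Pcdhgc5 read 29.6 against 41.5 and 39.7. Pcdhga6 read 67.1 against 36.5 and 39.7 (log2 fold change -0.80, SE 0.38; limma, adjusted p = 0.940) and Pcdhgb6 read 58.2 against 39.5 and 46.8. The alpha isoform Pcdhac2 had 5 reads in siNC and 6 and 9 in siSetdb1, too few to show a difference at this depth. Among markers of other cells in these libraries, 0 of 5 macrophage markers were positive with a median of -0.68, summing to 767 normalised counts in siNC and 397 and 349 in siSetdb1, and 2 of 9 fibroblast markers were positive with a median of -0.21. Of the Schwann cell and nerve markers 5 of 8 were positive with a median of 0.26. Mural markers were positive in 2 of 6 with a median of -0.04, summing to 13037 in siNC and 14178 and 16494 in siSetdb1. Endothelial markers were positive in 3 of 5 with a median of 0.34, summing to 85.9 against 77.0 and 125. Adipocyte markers were positive in 4 of 8 with a median of -0.01. None was called (limma), and their part in the protocadherin values was not tested.

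In the 4-OHT experiment the beta cluster was lower as in BAT, and the gamma A and B sum was close to its control. With 1 library per group these values have no replicate check. The beta genes had 1622 reads in ETOH and 1207 in 4-OHT, a ratio of 0.772 after scaling with a counting interval of 0.716 to 0.832. On scaled counts 18 of 21 beta genes were lower and 3 higher. Of all 13969 genes with at least 50 reads in 1 library, 51.7% had a positive log2 ratio. The gamma A and B genes had 2812 and 2746 reads, a ratio of 1.01 (counting interval 0.961 to 1.07), or 0.968 when scaled by total reads.

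Of the 49 members 31 had at least 50 reads in 1 library. Past 1.5-fold, 5 were lower and 0 higher, where 6.12% and 4.21% of 13969 genes were. The 5 were Pcdhac2, Pcdhb5, Pcdhb16, Pcdhb17 and Pcdhb21. Pcdhb16 had 231 reads in ETOH and 120 in 4-OHT, a scaled ratio of 0.539 (counting interval 0.429 to 0.675). Pcdhb17 had 272 and 153, a ratio of 0.584 (0.476 to 0.714). Pcdhac2, the last alpha isoform, had 80 and 37, a ratio of 0.480 (0.316 to 0.717). Each of these 3 intervals excludes equal counts, and covers counting error only. With a minimum of 10 reads in place of 50, 11 of 40 members were lower past 1.5-fold and 0 higher, where 11% and 8.08% of 19556 genes were.

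Other beta genes in the 4-OHT experiment varied. Pcdhb19 had 155 and 106 reads, a ratio of 0.710 (counting interval 0.549 to 0.914), while Pcdhb22 had 341 and 382, a ratio of 1.16 (1.00 to 1.35). Pcdhb19 was lower and Pcdhb22 slightly higher, the latter with an interval that begins at equal counts. The remaining alpha genes were hardly detected: Pcdha12 had 2 and 9 reads, Pcdha5 had 2 and 4, Pcdha9 had 2 and 0, and the Pcdha11 identifiers had 7 and 7 and 0 and 3.

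Gamma genes of the 4-OHT experiment differed by smaller amounts. Pcdhgb2 had 211 and 284 reads, a ratio of 1.40 (counting interval 1.16 to 1.68), and Pcdhgb6 had 350 and 267, a ratio of 0.791 (0.672 to 0.931). Pcdhgb4 had 233 and 235. Pcdhgc3 had 849 and 688, a ratio of 0.841 (0.759 to 0.931), and its share of gamma reads was 21.5% and 18.5%. Pcdhgc4 had 119 and 89 reads and Pcdhgc5 had 177 and 207. Schwann cell and nerve markers were tested for 8 genes here, 3 positive with a median log2 ratio of -0.31, and fibroblast markers for 7, of which 1 was positive, with a median of -0.43. Tubb3, a neuronal tubulin, had 436 reads in ETOH and 2145 in 4-OHT. Macrophage markers were positive in 0 of 6 with a median of -0.59, and adipocyte markers in 8 of 8 with a median of 0.39. The macrophage sum was 95280 scaled counts in ETOH and 54803 in 4-OHT. Endothelial markers were positive in 1 of 4 with a median of -0.70, summing to 2828 and 1590. Mural markers were positive in 2 of 6 with a median of -0.21, summing to 45955 and 46411. Their part in the protocadherin values was not tested.

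**Figure D3:**
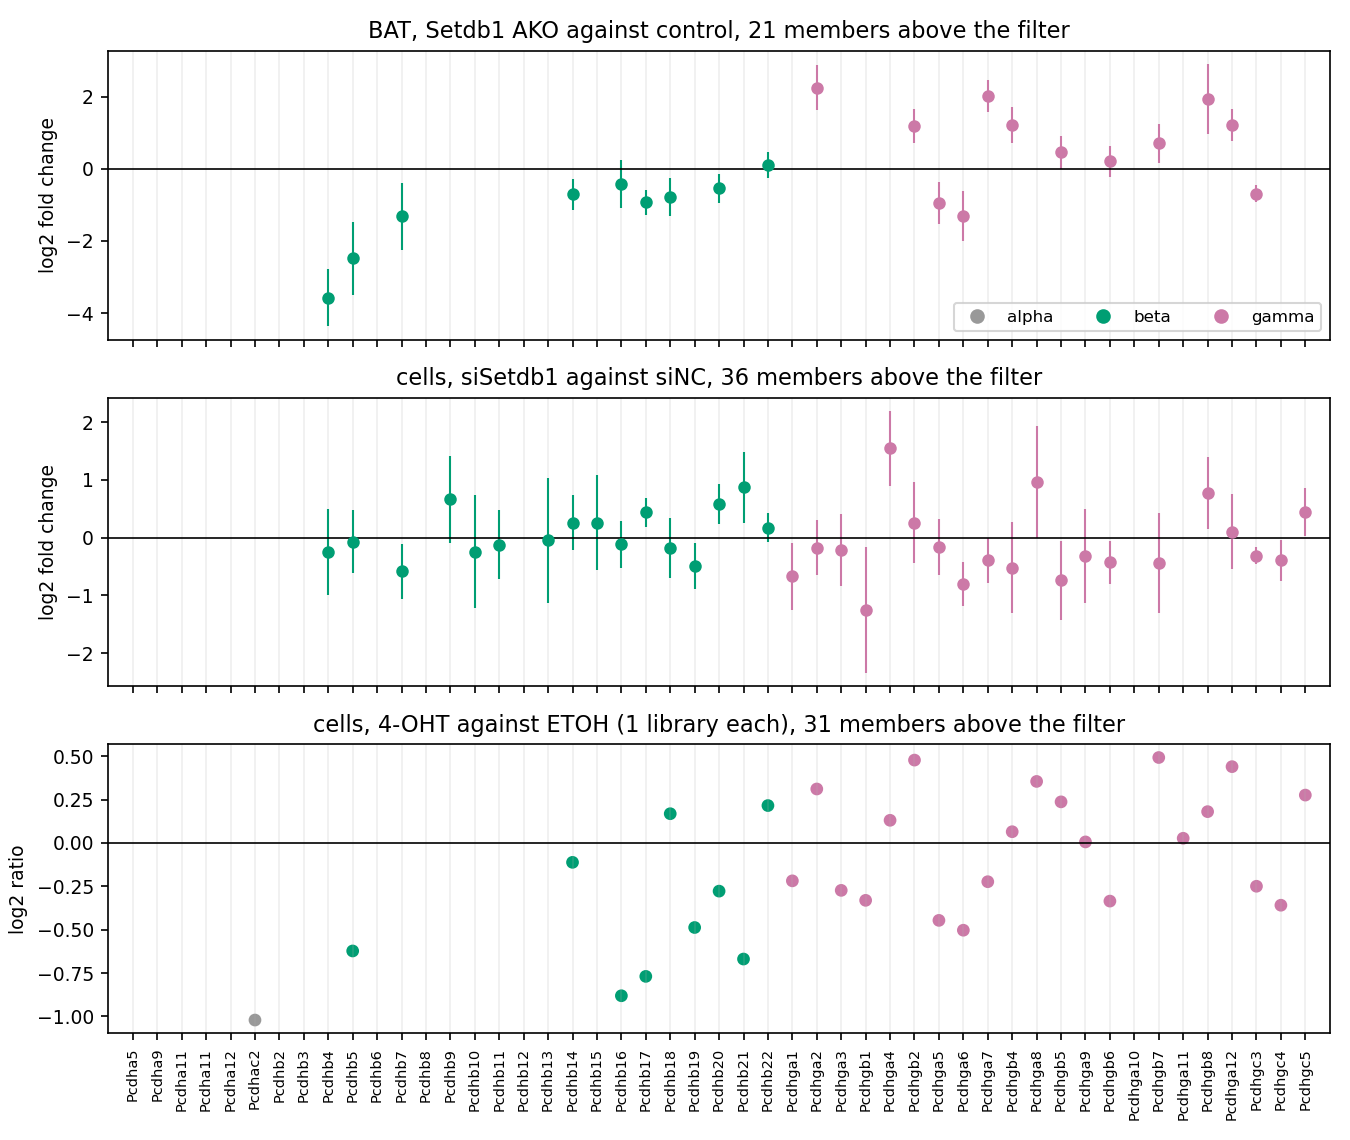
Log2 fold change (BAT and siRNA, with SE as bars) or log2 ratio (4-OHT, 1 library each) of the members above the filter of each experiment, in order along the alpha, beta and gamma clusters. In BAT most beta points lie below 0 and most gamma points above it; 21 members are shown for BAT, 36 for siRNA and 31 for 4-OHT, and none was called in BAT or siRNA.

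The experiments share no library, so their members can be set side by side. Of the 42 members listed in both BAT and the 4-OHT experiment, 29 were on the same side of their control by group means, 11 higher and 18 lower, where 52.6% of all genes listed in both were on the same side. Of the 21 beta genes 15 were lower in both and 1 was higher in both, and of the 21 gamma genes 10 were higher in both and 3 lower in both. Between BAT and the siRNA experiment 19 of 41 members were on the same side, against 53.2% of all genes, and between the siRNA and 4-OHT experiments 26 of 43, against 50%. Beta genes were lower in 17 of 21 cases in BAT and in 18 of 21 in 4-OHT, and these counts alone put most of them on the same side. Members of a cluster share exons, sequence and library depth, so they are not independent points.

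Among the 19 members above the filter in both BAT and 4-OHT, 16 had the same sign and Pearson's r of the log2 values was 0.65 and Spearman's rho 0.66, given as a description. The 3 of opposite sign were Pcdhb18, Pcdhgb6 and Pcdhga7. Over all 12480 genes above both filters Pearson's r was 0.16 and Spearman's rho 0.10. Passing a filter can depend on the group in which a gene is high, so these counts support nothing beyond the values shown.

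Pcdhgc3, Pcdhb4, Pcdhb19 and Pcdhga6 were lower in every library with reduced Setdb1 than in every control of its experiment, 4 of 41 members, as were 4.34% of the 18810 genes listed in all 3. Pcdhga8 and Pcdhgb8 were higher in every such library, as were 5.13% of all genes, with few reads in BAT and siRNA. Both counts of members are small, and neither is read as a result about the members. Pcdhga8 had 4 and 4 against 6 and 7 in BAT, 4 against 12 and 6 in the siRNA experiment, and 118 against 146 in the 4-OHT experiment. Pcdhgb8 had 1 and 14 against 16 and 23, 11 against 20 and 18, and 127 against 139. Pcdhga6 had 21 and 14 reads against 3 and 11 in BAT, 68 against 36 and 39 in the siRNA experiment and 217 against 147 in the 4-OHT experiment. Pcdhb4, Pcdhga8 and Pcdhgb8 fall outside the naming rule and were picked with their values known.

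The noncoding gene next to the gamma cluster stood higher in all 3 experiments. 3222401L13Rik (37655451 to 37661742), a lincRNA on the plus strand, ends 50 bases before the annotated start of Pcdhga1. It read 4.59 and 2.03 normalised counts in control BAT and 18.5 and 17.5 in Setdb1 AKO (log2 fold change 2.21, SE 0.64; limma, adjusted p = 0.142). It had 22 reads in siNC and 36 and 42 in siSetdb1, and 40 in ETOH and 143 in 4-OHT, a scaled ratio of 3.71 (counting interval 2.60 to 5.41). Every library with reduced Setdb1 was above its controls, as was so for 5.13% of the 18810 genes listed in all 3 experiments. Pcdhga1 itself, the first gamma gene, had 3 and 2 reads against 6 and 11 in BAT, 26 against 16 and 15 in the siRNA experiment and 80 against 66 in the 4-OHT experiment.

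Of the other genes between the beta and gamma clusters, Taf7 also lay above its controls in every library. Taf7, an intronless gene for a subunit of the TFIID transcription factor, read 150.4 and 201 normalised counts in control BAT and 228 and 204 in Setdb1 AKO, and 149 in siNC and 261 and 238 in siSetdb1 (log2 fold change 0.74, SE 0.20; limma, adjusted p = 0.637). It had 413 reads in ETOH and 427 in 4-OHT. Slc25a2, an ornithine carrier of mitochondria, had 0 to 4 reads in every BAT and siRNA library and 27 and 31 in ETOH and 4-OHT. Gm8242, a transcribed pseudogene, had 38 and 18 reads against 24 and 27 in BAT, 47 against 48 and 56 in the siRNA experiment and 45 against 53 in the 4-OHT experiment. 4930517L18Rik had 5 reads in ETOH and 0 in 4-OHT. Slc25a2 and Gm8242 overlapped between the BAT groups.

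**Figure D4:**
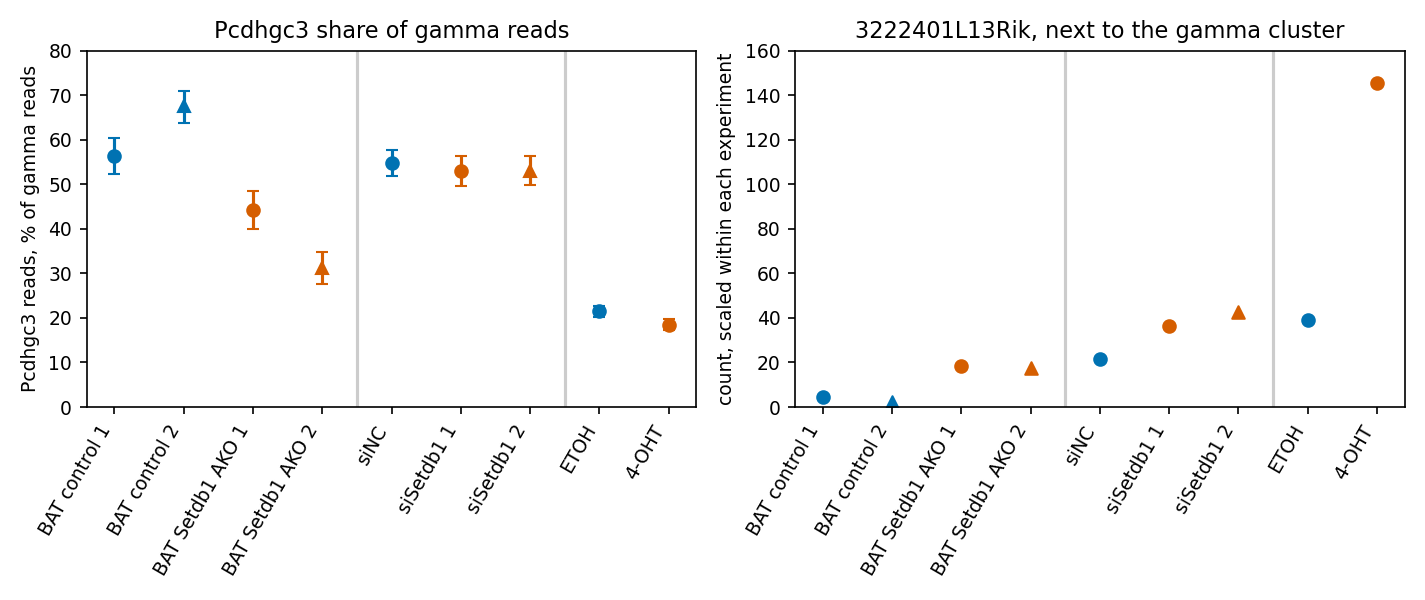
Left, Pcdhgc3 reads as a percentage of all gamma reads in each library, with exact 95% binomial intervals. Right, the count of 3222401L13Rik, scaled within each experiment; blue marks are controls and orange marks libraries with reduced Setdb1, and vertical lines separate the experiments. The Pcdhgc3 share was 56.4% and 67.5% in control and 44.2% and 31.2% in Setdb1 AKO BAT, and the lincRNA was above its controls in every library with reduced Setdb1.

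Genes flanking the clusters and genes of related function were given by lists drawn up with earlier results of these data known. Of 26 genes drawn up as neighbours of the clusters 24 were listed and 21 tested in BAT, 8 of them positive, with a median log2 fold change of -0.09 and 1 call. That gene was Cd14, a receptor for bacterial lipopolysaccharide on macrophages, which rose from 493 and 529 normalised counts to 1005 and 981 (log2 fold change 0.96, SE 0.15; limma, adjusted p = 0.0314). Without any one library the adjusted p (limma) was 0.0628 to 0.275. In cells Cd14 read lower, at 33.6 in siNC against 18.2 and 17.3 in siSetdb1, and 2094 reads in ETOH against 949 in 4-OHT. Macrophage markers had a summed level of 2969 and 1965 normalised counts in control and 2133 and 2955 in Setdb1 AKO BAT, 4 of 6 positive, and their part in the Cd14 values was not tested. Over all genes tested the median log2 value was 0.01 in BAT, 0.00 in the siRNA experiment and 0.01 in the 4-OHT experiment.

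Nonclustered protocadherins, which lie outside the 3 clusters and have no shared constant exons, had 1 call. Of 7 tested in BAT 3 were positive, with a median of -0.05. Pcdh19, an X-linked protocadherin known from the brain, rose from 103 and 128 normalised counts in the controls to 1375 and 1329 in Setdb1 AKO (log2 fold change 3.55, SE 0.18; limma, adjusted p = 2.35e-04). It read 413 in siNC against 507 and 454 in siSetdb1 and had 3596 reads in ETOH and 3776 in 4-OHT. Classical cadherins and catenins had 1 of 7 positive in BAT with a median of -0.12 and no call.

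Proteins that loop or silence the protocadherin clusters in neurons were measured too. Of 11 genes for CTCF, cohesin and its loaders and releasers, 11 were tested in each experiment, none was called in BAT or siRNA, and the medians were -0.06, 0.01 and 0.03 in BAT, siRNA and 4-OHT. Of the silencing proteins, among them Smchd1, DNA methyltransferases and HUSH complex genes, 15 were tested in BAT with a median of 0.01 and no call, and 16 in the siRNA experiment with a median of -0.02 and 1 call. That gene was Atf7ip, which encodes a partner protein that stabilises SETDB1, and it rose from 790.4 normalised counts in siNC to 1777 and 1795 in siSetdb1 (log2 fold change 1.18, SE 0.12; limma, adjusted p = 0.00500, but 0.697 with no filter on low counts). In BAT it read 202 and 228 against 405 and 539.6 (log2 fold change 1.12, SE 0.21; limma, adjusted p = 0.0503; edgeR, adjusted p = 0.0473). Of 12 protocadherin partners such as Ptk2, Fyn and Cyfip2, 11 were tested in BAT, 6 of them positive with a median of 0.13, and none was called.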

How the data were processed

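RNA was sequenced in 4 BAT libraries and 5 libraries of primary brown adipocytes. Per the submitters' processing notes, upstream tools were STAR 2.7.10a, Trimmomatic 0.39, DESeq2 1.36.0 and featureCounts 2.0.3, with GRCm38. The deposited BAT and siRNA tables hold a signal per gene, which the authors made by dividing reads by a size factor of each library. For 4-OHT the deposited values are counts, scaled counts and FPKM, per the file headers. The deposited log2 fold changes and p-values, per the file headers, served only for counts named as the authors'. Whole reads were recovered from the signal, with 100% of values within 0.05 reads of a whole number, and the siRNA tables were joined through siNC, which held the same reads in all 19381 genes of both tables.

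The members and lists were chosen with earlier results of these data known. BAT and siRNA were fitted with limma 3.58.1 (R 4.3.3) on log2(normalised count + 1), for genes reaching 10 normalised counts in 2 or more BAT libraries or 1 siRNA library, with Benjamini-Hochberg adjustment over all genes at 0.05. This scale understates changes of genes with few reads, and the spread behind each p-value is that between these libraries, which may be technical. With siNC alone in its group, its spread was taken from siSetdb1 (1 residual degree of freedom). For 4-OHT, log2 ratios of TMM-scaled CPM with a prior count of 2 were taken for genes with at least 50 reads in 1 library. Alternatives were edgeR 4.0.16, DESeq2 1.42.0, other filters and pseudocounts, a replicate block and leaving out each library. Scripts were tested on simulated data. Named by rule were the C-type isoforms, the 4 members of each cluster with the highest mean count in each experiment, members and list genes called, genes between the clusters and Setdb1. Any other gene was picked with its values known. Gene models and transcripts came from GENCODE M21, and all 49 members had the same start and end there.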

Additional observations from a re-analysis of the deposited data

Results flagged for a closer look

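For 5 members above the filter in both experiments, every Setdb1 AKO library of BAT lay on one side of its controls and every siSetdb1 library on the other side of siNC. These were 5 of 21 members tested in both, or 23.8%, where 15% of all 13413 genes tested in both did so. Pcdhga2, Pcdhga7 and Pcdhgb4 passed the BAT filter only with their Setdb1 AKO libraries, so these shares support nothing beyond the values shown. The difference between the experiments was not tested. Pcdhb17 had a log2 fold change of -0.93 in BAT and 0.44 in the siRNA experiment, and Pcdhb20 had -0.54 and 0.58. Among gamma genes Pcdhga2 had 2.25 and -0.18, Pcdhga7 had 2.03 and -0.39, and Pcdhgb4 had 1.21 and -0.52. None of these values passed the test over all genes in either experiment (limma), and the siRNA side rests on 1 control library.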

How the results depend on the processing

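No member was called in BAT or in the siRNA experiment under any alternative that gives a test; the count was 0 to 0 when each BAT library was left out. Leaving out a siSetdb1 library gives no test. The replicate block left the count of called BAT members at 0. The deviations of same-numbered libraries from their group means had a correlation of -0.02. With 2 libraries per group this is the same value for both numbers, so it cannot decide whether the numbers pair the libraries. No paired analysis was possible in the siRNA and 4-OHT experiments because siNC carries no number and 4-OHT has 1 library per group. With at least 10 reads in place of 50, 11 members were lower past 1.5-fold in 4-OHT in place of 5, where 11% of all genes were in place of 6.12%. With total counts in place of TMM the log2 ratio of the gamma sum in 4-OHT was -0.10 in place of -0.03, and 12 of 22 gamma genes were then lower in place of 9. Leaving out a library moved the log2 ratio of sums in BAT from -0.79 to -0.51 for beta, from 0.49 to 1.09 for gamma A and B and from -0.13 to 0.23 for all gamma genes. Leaving out a library moved Pcdhb22 in BAT from -0.33 (without Setdb1 AKO 2) to 0.55 and Pcdhgb6 from -0.30 (without Setdb1 AKO 2) to 0.73. Pcdhb13 in the siRNA experiment turned to 0.15 with edgeR, 0.16 with DESeq2 and 0.016 with a pseudocount of 5. Cd14 and Pi16 lost their BAT calls with no filter (limma, adjusted p = 0.206 and 0.256); Cd14 lost it without any one library (0.0628 to 0.275), and Pi16 without either control or Setdb1 AKO 2. Atf7ip lost its siRNA call with no filter (limma, adjusted p = 0.697), and Setdb1 lost its BAT call with no filter (0.206) and without control 1 (0.225) or control 2 (0.230). The cause was not tested. Depth limits most members in BAT and the siRNA experiment, where the median member had 7 to 9 and 15 to 19 reads per library.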
